A study of Mus musculus with 6 samples.

Results

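The 10 keratin genes described here are Krt7, Krt8, Krt18, Krt19 and Krt20 of simple epithelia, Krt5, Krt14 and Krt17 of basal epithelial layers, Krt10 of suprabasal epidermis, and Krt80. They were picked by symbol from the 48587 gene rows of a table of ribosome-bound RNA in neonatal mouse kidney, because most were higher in the Foxp1-deficient library of every equally numbered pair. Their difference between groups is therefore the reason for their choice, is given as a description and is not tested. The name "simple and basal keratins" fits the data only in part: Krt5, the basal keratin that pairs with Krt14, had between 0 and 2 counts in each library, and Krt10 and Krt80 belong to neither class.

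Keratins are the intermediate filament proteins of epithelial cells. Each filament is built from a type I and a type II chain, and the usual pairs are Krt8 with Krt18 in simple epithelia and Krt5 with Krt14 in basal layers. Krt7 and Krt19 are further simple keratins, found in the kidney in ureteric bud derivatives and outside it in mesothelium and many ducts. Injured kidney tubules are known to make more Krt8, Krt18 and Krt20.

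Libraries came in 3 from Foxp1-deficient animals (Cdh16Cre with Foxp1fl/fl and RiboTag), and 3 controls from littermates (Cdh16Cre with Foxp1fl/+ and RiboTag), so that all 6 carried Cre and at least 1 floxed Foxp1 allele. Cdh16 drives Cre in kidney tubule epithelium, RiboTag adds HA to ribosomes wherever Cre has been active, and all 6 libraries are RNA pulled down with anti-HA beads. The treatment label reads chronic acid load for the Foxp1-deficient samples and vehicle for the controls, and the protocols describe no acid load. Genotype and treatment cannot be told apart by these labels. The sources do not say whether replicates come from different animals. The p-values below therefore measure spread among these libraries, which may be technical.

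Total counts ran from 9710048 to 18958196 in Foxp1-deficient libraries and from 11264609 to 18206881 in controls. Foxp1 itself had 34.6, 11.3 and 29.3 CPM (counts scaled to a common library size with TMM factors) in Foxp1-deficient libraries 1, 2 and 3, against 48.8, 30.8 and 35.9 CPM in controls 1, 2 and 3. It was lower in 3 of 3 equally numbered pairs, and the groups overlapped. Both libraries numbered 2 stood apart. Among genes averaging at least 10 CPM in the libraries of the other numbers, 1.20% were at 0 in Foxp1-deficient 2 and 1.24% in control 2, against at most 0.0323% in the other Foxp1-deficient libraries and at most 0.129% in the other controls. Cdh16 and Cdh1, as genes of the labelled tubular cell type, were lower in the libraries numbered 1 and 2 than in those numbered 3. Cdh16 had 0.283, 2.42 and 42.1 CPM in Foxp1-deficient libraries 1, 2 and 3, against 0.332, 10.9 and 43.0 CPM in the controls. Cdh1, the epithelial cadherin gene, had 0.565, 0 and 6.73 CPM in Foxp1-deficient libraries, against 0.133, 0 and 6.51 CPM in controls. Of 14 genes of simple and tubule epithelium, 1, 7 and 0 were at 0 in Foxp1-deficient libraries 1, 2 and 3, against 2, 5 and 0 in controls. Among them Cldn3 had 7.51 to 52.6 CPM and Spint2 27.1 to 204 CPM over all libraries. The share of tubule cells in each library was not tested.

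The genes lie in both keratin clusters of the mouse genome (mm10). Of 27 keratin rows on chromosome 15, between 101349571 and 102032026, 5 are members: Krt80, Krt7, Krt5, Krt8 and Krt18. Of 27 on chromosome 11, between 99232761 and 100269871, the other 5 are members: Krt10, Krt20, Krt19, Krt14 and Krt17. Krt18 is the type I gene that lies among the type II genes, next to its partner: Krt8 (101996711 to 102004342, minus strand) and Krt18 (102028216 to 102032026, plus strand) point away from each other across 23873 bases.

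RefSeq start-site sequences (GRCm38.p6) are printed for this partner pair, and for Krt20 as the kidney-injury keratin whose window held a forkhead-type motif, since Foxp1 is a forkhead factor. Each runs 5′ to 3′ from 250 bases before the RefSeq start to 30 bases after it. Capitals mark TATAAA or its reverse complement TTTATA, and TGTTTA, the core of forkhead motifs. Krt8 is read at chr15:102004313-102004592 on the minus strand, Krt18 at chr15:102027966-102028245 on the plus strand and Krt20 at chr11:99438124-99438403 on the minus strand.
Krt8: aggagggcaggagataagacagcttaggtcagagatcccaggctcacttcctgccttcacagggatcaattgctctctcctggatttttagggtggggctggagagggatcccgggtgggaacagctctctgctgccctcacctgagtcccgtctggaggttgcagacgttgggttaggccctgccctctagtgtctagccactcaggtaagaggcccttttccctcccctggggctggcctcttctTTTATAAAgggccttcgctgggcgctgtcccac
Krt18: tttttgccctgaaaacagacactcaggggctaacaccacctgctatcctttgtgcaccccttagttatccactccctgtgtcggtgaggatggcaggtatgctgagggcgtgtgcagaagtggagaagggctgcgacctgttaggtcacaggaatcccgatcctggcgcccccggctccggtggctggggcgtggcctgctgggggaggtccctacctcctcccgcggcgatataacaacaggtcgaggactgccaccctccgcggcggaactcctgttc
Krt20: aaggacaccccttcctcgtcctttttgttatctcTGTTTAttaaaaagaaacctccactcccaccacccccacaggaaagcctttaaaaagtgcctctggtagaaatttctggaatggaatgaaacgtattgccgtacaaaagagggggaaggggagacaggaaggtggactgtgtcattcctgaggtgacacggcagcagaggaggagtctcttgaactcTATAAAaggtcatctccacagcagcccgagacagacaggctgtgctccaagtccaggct
In Krt8 the TATAAA begins 1 base before the annotated start and overlaps a TTTATA on the other strand, in Krt20 it begins 29 bases before it, and Krt18 has none. Windows were found for 7 of the 10 genes, each searched over its 300 bases on both strands. TATAAA was in 3 of the 7 (Krt8, Krt10 and Krt20), against 13.6% of all 32851 windows. TGTTTA was in 1 of 7 (Krt20, beginning 216 bases before the start), against 13.4% of all windows, and the longer TGTTTAC in 0 of 7, against 3.65%. The AP-1 letters TGANTCA were in 0 of 7, against 7.81%, and the GC box GGGCGG in 1 of 7 (Krt7), against 35.7%. For Krt14 and Krt7 the RefSeq start lies 1518 and 1360 bases inside the counted gene, so their windows are not at its outer end. A match is a string of letters and not a binding site.

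Among simple keratins, Krt8 was higher in every Foxp1-deficient library than in any control. Krt8, the type II chain of simple epithelia, had 640, 744 and 387 CPM in Foxp1-deficient libraries 1, 2 and 3, against 185, 322 and 201 CPM in controls 1, 2 and 3. The means were 590 ± 183 CPM in Foxp1-deficient libraries and 236 ± 74.9 CPM in controls (SD, n = 3 each), a log2 fold change of 1.32 (SE 0.44). Leaving out any 1 library kept it between 1.13 and 1.60.

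Krt18, the type I partner of Krt8, had 272, 608 and 185 CPM in Foxp1-deficient libraries 1, 2 and 3, against 123, 455 and 142 CPM in controls 1, 2 and 3. The groups overlapped, because both libraries numbered 2 were high. Its log2 fold change was 0.57 (SE 0.68), and it was -0.06 without Foxp1-deficient library 2. Within pairs it was 2.21-fold, 1.34-fold and 1.30-fold higher in the Foxp1-deficient library, against 3.46-fold, 2.31-fold and 1.93-fold for Krt8.

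Krt19, a short type I keratin of ducts and mesothelium, had 437, 1793 and 233 CPM in Foxp1-deficient libraries 1, 2 and 3, against 177, 467 and 107 CPM in controls 1, 2 and 3. Each Foxp1-deficient library was above the control of its number, by 2.47-fold, 3.84-fold and 2.19-fold, although control 2 was above Foxp1-deficient libraries 1 and 3. The log2 fold change of 1.71 (SE 0.89) was 0.43 without Foxp1-deficient library 2 and 1.24 without both libraries numbered 2.

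Krt7, the type II chain found with Krt19 in ducts and mesothelium, had 322, 2505 and 537 CPM in Foxp1-deficient libraries 1, 2 and 3, against 163, 820 and 284 CPM in controls 1, 2 and 3. The pattern was the same in kind: the highest value in the library numbered 2 of each group, and 1.98-fold, 3.05-fold and 1.89-fold higher values within pairs. Its log2 fold change of 1.41 (SE 0.93) was 0.03 without Foxp1-deficient library 2 and 0.95 without both libraries numbered 2.

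Krt20, a type I keratin of urothelial surface cells and injured tubules, was scarce. It had 4.92, 5.61 and 3.71 CPM in Foxp1-deficient libraries 1, 2 and 3, against 2.86, 0 and 1.56 CPM in controls 1, 2 and 3. The groups did not overlap. Control 2 had no count, which allows up to 0.315 CPM (3 counts of that library, counting error only), so within pair 2 the Foxp1-deficient library was at least 17.8-fold higher. In the other pairs it was 1.72-fold and 2.38-fold higher.

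**Figure D1:**
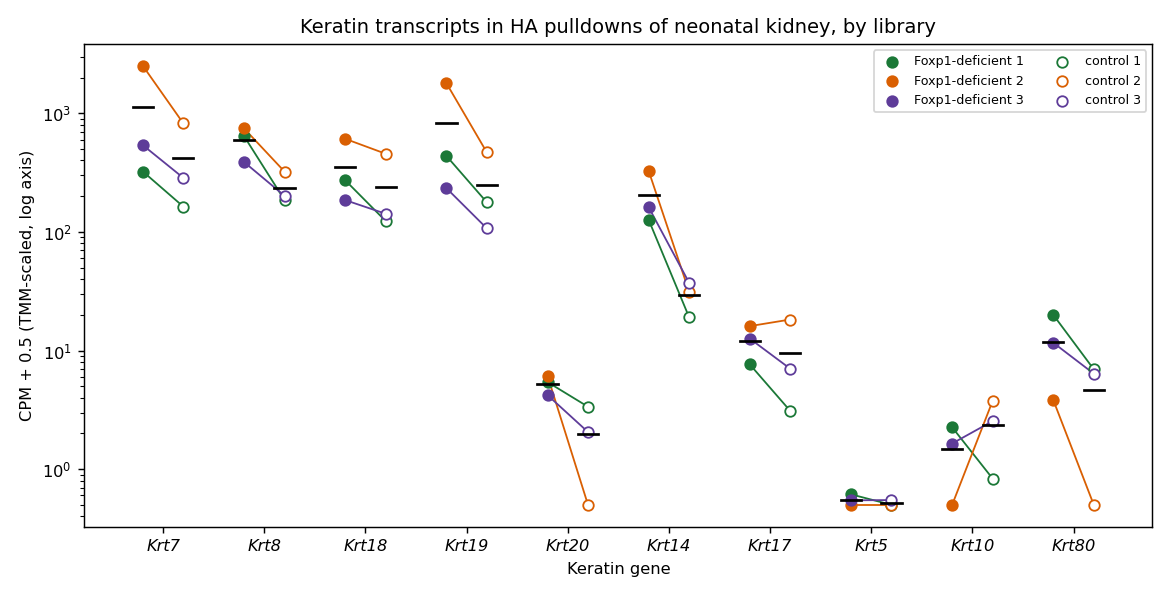
CPM + 0.5 of each keratin gene on a log axis, for Foxp1-deficient libraries (filled) and controls (open), with a line joining libraries of equal number and a black bar at each group's mean (n = 3). Krt8, Krt14 and Krt20 are higher in all 3 Foxp1-deficient libraries than in any control, and the libraries numbered 2 are highest for Krt7, Krt18 and Krt19.

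Among basal keratins, Krt14 had the largest difference of the 10 genes. It had 126, 325 and 161 CPM in Foxp1-deficient libraries 1, 2 and 3, against 18.5, 30.8 and 36.7 CPM in controls 1, 2 and 3. The lowest Foxp1-deficient value was above the highest control value. The means were 204 ± 107 CPM and 28.7 ± 9.26 CPM (SD, n = 3 each), a log2 fold change of 2.83 (SE 0.52) that stayed between 2.33 and 3.07 when any 1 library was left out. Within pairs the difference was 6.78-fold, 10.6-fold and 4.38-fold.

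Krt5, the type II partner that Krt14 has in basal epithelium, had 2, 0 and 1 counts in the Foxp1-deficient libraries and 0, 0 and 1 counts in the controls. Krt14 had 2222, 2553 and 3511 counts in the same Foxp1-deficient libraries, and 279, 293 and 755 counts in the controls. No fold change is given for Krt5, which lies at or under 3 counts in both groups and did not pass the low-count filter. The transcription factor gene Trp63 and Krt15, both of basal layers, were also at or near 0: Trp63 had 0, 0 and 1.10 CPM in Foxp1-deficient libraries, against 0.199, 0 and 0.243 CPM in controls, and Krt15 had at most 0.183 CPM in any library.

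Krt17, a type I keratin of basal and injured epithelium, had 7.13, 15.6 and 12.1 CPM in Foxp1-deficient libraries 1, 2 and 3, against 2.59, 17.8 and 6.51 CPM in controls 1, 2 and 3. It was higher in pairs 1 and 3 and lower in pair 2, and the groups overlapped. Its log2 fold change was 0.37 (SE 0.76), or -0.06 without control 1. Krt14, Krt16 and Krt17 are close paralogs. The counting used no option for reads with several matches, so reads that match more than 1 of them may not be counted. Per kilobase of exon, Krt14 exceeded Krt17 by 15.6-fold, 18.5-fold and 11.7-fold in Foxp1-deficient libraries 1, 2 and 3, against 6.31-fold, 1.53-fold and 4.97-fold in controls 1, 2 and 3. These ratios did not overlap between the groups, but they are built from differences for which the genes were chosen.

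Krt10, the type I keratin of differentiating epidermis, did not share the direction of the others. It had 1.75, 0 and 1.14 CPM in Foxp1-deficient libraries 1, 2 and 3, against 0.332, 3.26 and 2.04 CPM in controls 1, 2 and 3. It was lower in pairs 2 and 3 and higher in pair 1. Foxp1-deficient library 2 had no count, which allows 0.382 CPM, so it was at least 8.51-fold lower there than control 2. In pair 1 it was 5.28-fold higher, and in pair 3 the Foxp1-deficient library had 0.561 of the control's level. The log2 fold change of -0.92 (SE 1.54) was 0.28 without both libraries numbered 2.

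Krt80, a type II keratin found near cell junctions of differentiating epithelia, had 19.5, 3.31 and 11.1 CPM in Foxp1-deficient libraries 1, 2 and 3, against 6.44, 0 and 5.88 CPM in controls 1, 2 and 3. It was 3.02-fold higher in pair 1, at least 10.5-fold higher in pair 2 where the control had no count, and 1.89-fold higher in pair 3. The library numbered 2 was the lowest of its group in both groups, unlike for Krt7, Krt18 and Krt19, and the groups overlapped.

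**Figure D2:**
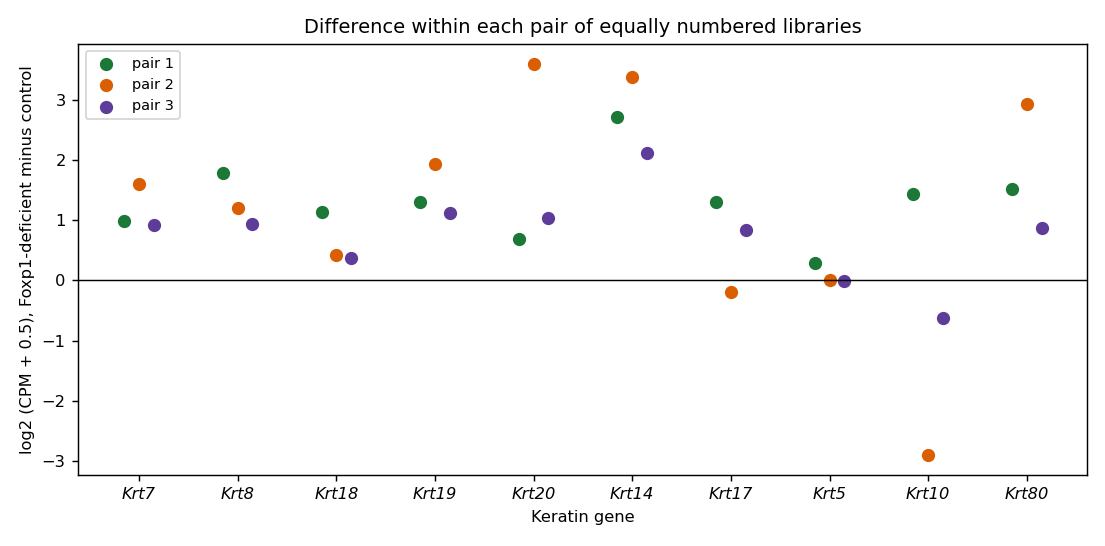
Difference in log2 (CPM + 0.5), Foxp1-deficient minus control, within each pair of equally numbered libraries (points) for each keratin gene. All 3 points lie above 0 for 7 genes, and Krt17, Krt10 and Krt5 have points at or below it.

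In all, 7 of the 10 genes were higher in the Foxp1-deficient library of all 3 pairs, where 16.5% of the 14311 genes tested were. Groups did not overlap for 3 of the 10, all higher in Foxp1-deficient libraries, where 2.64% of tested genes were. None was without overlap in the lower direction, where 2.11% of tested genes were. A log2 fold change above 1 was fitted for 6 of the 10, against 5.56% of tested genes. Since the genes were chosen for these differences, the counts describe the choice. Krt10, Krt17 and Krt5 are the members that were not higher in every pair. Of the 9 members that passed the filter, the median log2 fold change was 1.41, against 0.03 for all genes tested, and it was 0.43 without Foxp1-deficient library 2. In bulk RNA, fewer cells of a type and less RNA per cell cannot be told apart, and this holds for each value here.

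The genes differed in where their spread lay. Of the variance in log2 (CPM + 0.5) over the 6 libraries, the difference between groups held 88.2% for Krt14, 75.2% for Krt8 and 52.9% for Krt20. Replicate number held most of it for Krt18 (81.1%), Krt7 (77.1%), Krt17 (73.0%), Krt19 (66.5%) and Krt80 (65.7%). Krt10 had 7.53% between replicate numbers and 12.4% between groups. Replicate number has more levels than group, so the shares do not start equal. Krt27, counted in a single library, had 40% and 20%. All are shares of the observed spread in 6 libraries, not tests.

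Per kilobase of exon, which allows genes to be compared, Krt19, Krt8 and Krt18 were the most abundant keratins. Krt19 had 443 ± 457 CPM per kilobase in Foxp1-deficient libraries and 135 ± 103 in controls, Krt8 had 327 ± 102 and 131 ± 41.5, and Krt18 had 253 ± 160 and 171 ± 133 (SD, n = 3 each). The order of these genes was not fixed: Krt19 was above Krt8 in 2 of 6 libraries, and Krt8 above Krt18 in 4 of 6. Krt7 followed with 159 ± 170 in Foxp1-deficient libraries and 59.9 ± 49.6 in controls, and was below Krt18 in all 6 libraries. Its counted exons add up to 7055 bases because many transcript forms are merged, against 1805 for Krt8, which lowers its value per kilobase. Krt14 had 116 ± 60.7 CPM per kilobase in Foxp1-deficient libraries and 16.3 ± 5.27 in controls. Krt17, Krt80, Krt20, Krt10 and Krt5 each stayed below 12 in every library, and neighbours in this order changed place between libraries, except that Krt10 was above Krt5 in 5 libraries and both were at 0 in the other.

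The make-up of the keratin transcripts differed with these shifts. Krt18 made up 21.1%, 18.3% and 20.1% of the members' summed CPM per kilobase in Foxp1-deficient libraries 1, 2 and 3, against 26.9%, 36.0% and 29.7% in controls 1, 2 and 3. Krt14 made up 7.77%, 7.82% and 13.9% in Foxp1-deficient libraries, against 3.23%, 1.94% and 6.13% in controls. Neither share overlapped between the groups, but both are built from the differences for which the genes were chosen. The ratio of Krt8 to Krt18 per kilobase was 1.83, 0.949 and 1.63 in Foxp1-deficient libraries, against 1.17, 0.549 and 1.10 in controls, higher in each pair with overlapping groups. The summed type II chains stood at 0.808, 0.481 and 0.827 of the type I chains in Foxp1-deficient libraries, against 0.655, 0.485 and 0.836 in controls. This ratio followed the replicate number, with both libraries numbered 2 lowest.

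**Figure D3:**
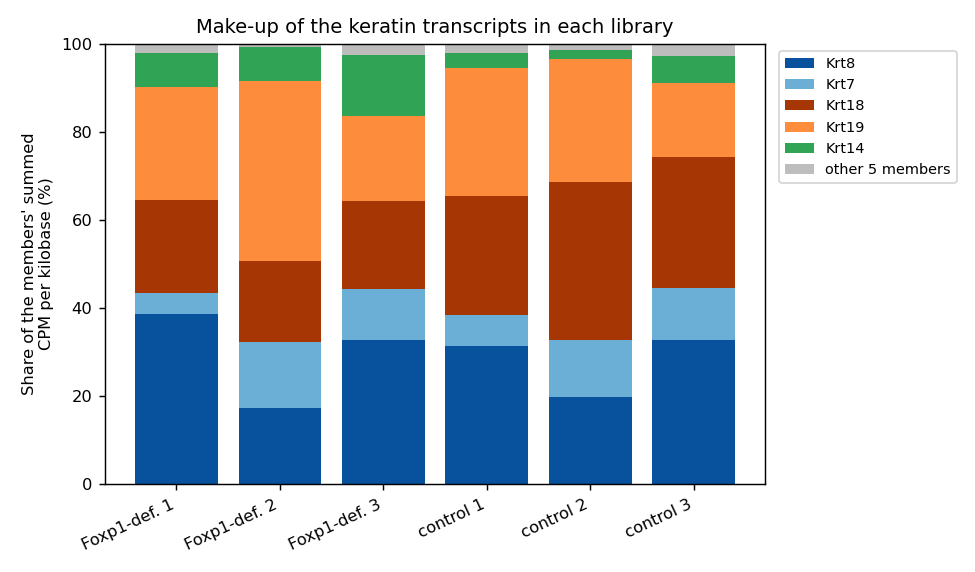
Share of each keratin in the 10 members' summed CPM per kilobase of exon, in percent, for the 3 Foxp1-deficient libraries and the 3 controls. Krt18 takes a smaller share and Krt14 a larger one in every Foxp1-deficient library than in any control, and Krt19 takes 40.8% in Foxp1-deficient library 2.

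The rest of the keratin family was nearly silent. Of 45 other keratin rows, 22 had no count in any of the 6 libraries, 19 had some counts but stayed below 1 CPM, and 4 reached 1 CPM in at least 1 library. The members held between 99.5% and 99.9% of all keratin CPM per kilobase in Foxp1-deficient libraries and between 99.2% and 99.6% in controls. Krt8-ps, a Krt8 pseudogene on chromosome 7, had 3.45, 0 and 2.15 CPM in Foxp1-deficient libraries, against 1.66, 0.105 and 0.486 CPM in controls, and its reads cannot be told from Krt8 with certainty. Krt23 reached 4.31 CPM in control 2, Krt74 reached 2.10 CPM in control 2 and Krt72 reached 2.68 CPM in Foxp1-deficient library 2, each near 0 elsewhere. Krt6a and Krt16, the wound-response keratins that often accompany Krt17, had at most 0.113 and 0.598 CPM. Krt1, the type II partner of Krt10, had at most 0.0486 CPM.

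Other genes were read in the same comparison: all that could be tested, and lists chosen with earlier results of these data known. In edgeR's quasi-likelihood test over 14311 genes, 0 passed an adjusted p of 0.05 (0% of genes tested) and 103 had an unadjusted p under 0.05. DESeq2 called 6 genes (0.0419%) and limma-voom with quality weights 0, with 330 at an unadjusted p under 0.05. Blocking on replicate number, edgeR called 0 (762 at an unadjusted p under 0.05), limma-voom 8 (0.0559%) and DESeq2 169 (1.18%).

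Desmosomes and plakins anchor keratin filaments to the cell membrane. Of 12 desmosome and plakin genes that could be tested, 10 were higher in Foxp1-deficient libraries and 2 were lower, and 0 passed edgeR's test. Their median log2 fold change was 0.70, and it lay between 0.25 and 0.94 over the 17 alternatives. In all genes tested, 53.6% were higher. All 3 pairs had the higher value in the Foxp1-deficient library for 7 of the 12, against 16.5% of genes tested. Ppl, encoding periplakin, had 45.3, 24.5 and 18.7 CPM in Foxp1-deficient libraries 1, 2 and 3, against 10.6, 4.94 and 7.09 CPM in controls 1, 2 and 3. The groups did not overlap, and its log2 fold change was 1.97 (SE 0.53). Plec, encoding plectin, which links filaments to other parts of the skeleton, had 345, 387 and 475 CPM in Foxp1-deficient libraries, against 138, 199 and 281 CPM in controls, a log2 fold change of 0.97 (SE 0.41). Pkp3, a plakophilin gene, had 4.13, 10.7 and 3.20 CPM in Foxp1-deficient libraries, against 0.797, 0.945 and 1.89 CPM in controls. Evpl, encoding envoplakin, had 1.47, 32.8 and 2.93 CPM in Foxp1-deficient libraries, against 1.13, 6.30 and 1.60 CPM in controls, and its log2 fold change of 2.04 (SE 1.29) was -0.44 without Foxp1-deficient library 2. DESeq2 with the replicate block called 3 of the 12, against 1.18% of genes tested: Plec (adjusted p = 2.12e-05 by DESeq2), Ppl (adjusted p = 2.59e-04 by DESeq2) and Dsp, encoding desmoplakin (adjusted p = 0.0194 by DESeq2, named after its values were seen). edgeR and limma-voom with the block called 0 of the 12.

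Of 12 other intermediate filament genes tested, 2 were higher and 10 lower, where 6636 of all 14311 genes tested were lower, and 0 passed edgeR's test. In all 3 pairs 1 was higher and 4 were lower, against 16.5% and 16% of genes tested. Several differences were near 0, such as that of the lamin gene Lmnb2 at -0.010 on the log2 scale. The median was -0.18 on the log2 scale, and it lay between -0.56 and -0.11 over the 17 alternatives. Des, encoding the muscle filament desmin, had 274, 333 and 223 CPM in Foxp1-deficient libraries 1, 2 and 3, against 283, 865 and 450 CPM in controls 1, 2 and 3. Synm, encoding synemin, which joins desmin filaments, had 18.8, 15.3 and 6.96 CPM in Foxp1-deficient libraries, against 53.3, 41.2 and 17.0 CPM in controls, with overlapping groups. Prph, encoding peripherin of peripheral neurons, had 5.54, 194 and 13.5 CPM in Foxp1-deficient libraries, against 0.664, 7.98 and 3.30 CPM in controls. Its log2 fold change of 4.17 (SE 1.51) was 1.27 without Foxp1-deficient library 2. Bfsp1, a lens filament gene, stayed below 4 CPM in every library. DESeq2 with the block called Synm as lower (adjusted p = 7.83e-04 by DESeq2) and Prph as higher (adjusted p = 1.17e-07 by DESeq2), against 1.18% of genes tested, and edgeR and limma-voom with the block called neither.

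**Figure D4:**
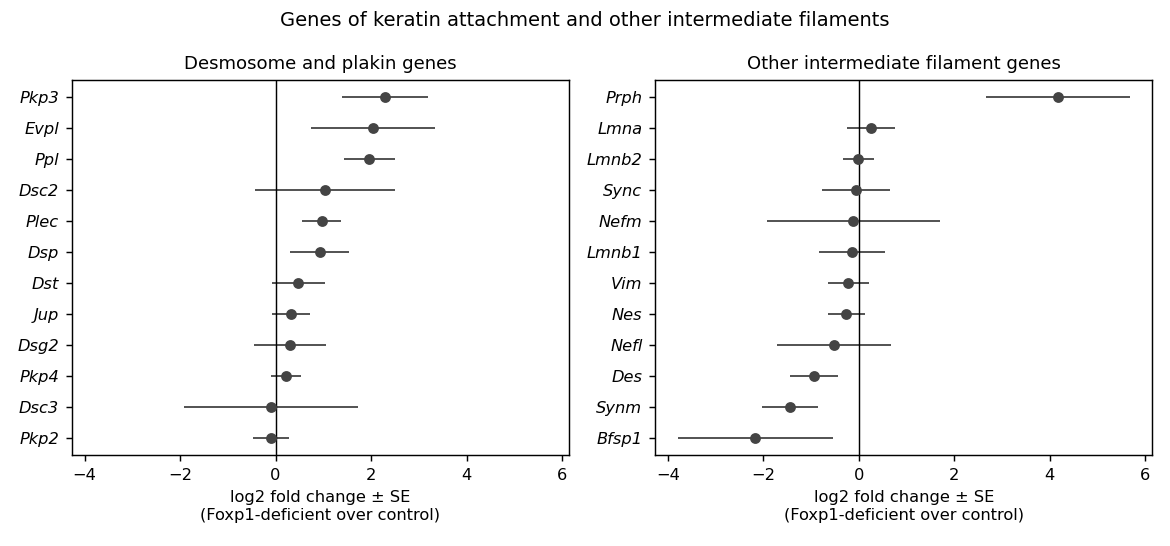
log2 fold change (Foxp1-deficient over control) with its SE from the edgeR fit of all 6 libraries, for the tested desmosome and plakin genes (left) and the other intermediate filament genes (right). Of the 12 genes on the left 10 lie above 0, and of the 12 on the right 2 do.

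Of 16 epithelial transcription factor genes, 8 could be tested, 5 of them higher and 3 lower, and 0 passed edgeR's test. Klf4, a zinc finger factor of differentiating epithelium, had 141, 41.7 and 104 CPM in Foxp1-deficient libraries 1, 2 and 3, against 13.2, 13.0 and 27.5 CPM in controls 1, 2 and 3. The groups did not overlap, and the log2 fold change was 2.42 (SE 0.57). DESeq2 with the block called Klf4 alone of the 8 (adjusted p = 4.52e-07 by DESeq2), against 1.18% of genes tested, and edgeR and limma-voom with the block called 0. Klf5, another factor of this family, had 12.4, 17.2 and 11.3 CPM in Foxp1-deficient libraries, against 9.43, 9.45 and 8.36 CPM in controls, a log2 fold change of 0.59 (SE 0.45). Ehf stayed below 4 CPM in every library.

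Mesothelium is the keratin-rich lining of body cavities, and its list had the highest summed level among the lists of keratin-bearing cell types. The lists hold different genes, so their sums do not rank the cell types by amount. The summed level of 10 mesothelial genes, all of them detected in all 6 libraries, ran from 3269 to 5382 CPM in Foxp1-deficient libraries and from 2284 to 2620 CPM in controls. Most of the 5382 CPM, in Foxp1-deficient library 2, came from Upk3b (2640 CPM, against 1030 CPM in control 2) and Msln. In pair 2, Upk3b, Upk1b, Msln, Wt1 and Gpm6a were higher. Lrrn4 (86.3 against 115 CPM), Bnc1 (78.3 against 149 CPM), Muc16 (7.01 against 25.7 CPM), Aldh1a2 and Rspo1 were lower in that pair. The keratin members summed to 1830, 5999 and 1531 CPM in Foxp1-deficient libraries 1, 2 and 3, against 678, 2115 and 786 CPM in controls 1, 2 and 3. Of the 10 mesothelial genes, 7 were higher and 3 lower, where 53.6% of genes tested were higher, and 0 passed edgeR's test. In all 3 pairs 4 were higher and 2 lower, against 16.5% and 16% of genes tested. The median was 0.24 on the log2 scale, and it lay between -0.16 and 0.55 over the 17 alternatives. Upk1b, a uroplakin gene also made by mesothelium, had 653, 591 and 541 CPM in Foxp1-deficient libraries, against 284, 336 and 232 CPM in controls, a log2 fold change of 1.07 (SE 0.37). Msln, encoding mesothelin, had 420, 1594 and 758 CPM in Foxp1-deficient libraries, against 174, 646 and 428 CPM in controls. Gpm6a, encoding a membrane glycoprotein, had 271, 148 and 349 CPM in Foxp1-deficient libraries, against 163, 54.9 and 163 CPM in controls. Rspo1, encoding a Wnt-enhancing ligand, was lower, with 18.1, 17.3 and 39.8 CPM in Foxp1-deficient libraries, against 46.5, 54.2 and 62.6 CPM in controls. Aldh1a2, encoding a retinoic acid synthesis enzyme, had 115, 133 and 132 CPM in Foxp1-deficient libraries, against 287, 146 and 162 CPM in controls, lower in all 3 pairs with no overlap. Wt1, the defining transcription factor gene, had 132, 86.3 and 136 CPM in Foxp1-deficient libraries, against 182, 63.5 and 149 CPM in controls, lower in 2 of 3 pairs. DESeq2 with the block called 5 of the 10: Upk1b, Msln, Gpm6a and Upk3b as higher and Rspo1 as lower (adjusted p from 1.16e-08 to 0.0221 by DESeq2), against 1.18% of genes tested. edgeR and limma-voom with the block called 0 of the 10. The part of mesothelial RNA in the keratin differences was not tested.

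Other keratin-bearing epithelia had lower summed marker levels than mesothelium in every library. The urothelial list, which shares genes with mesothelium, ran from 1517 to 3265 CPM in Foxp1-deficient libraries and from 784 to 1424 CPM in controls. Of the 10 urothelial genes, Upk2, Upk3a, Psca and Foxa1 had at most 0.732 CPM in Foxp1-deficient libraries and at most 0.389 CPM in controls. Sprr1a, encoding a cornified envelope precursor, had 14.8, 28.9 and 13.0 CPM in Foxp1-deficient libraries, against 8.37, 58.7 and 18.1 CPM in controls. Gata3, a transcription factor gene, had 4.13, 3.31 and 3.20 CPM in Foxp1-deficient libraries, against 4.38, 0 and 3.94 CPM in controls. Of the list 6 could be tested, 4 higher and 2 lower, and 2 of these (Upk1b and Upk3b) are mesothelial genes too. The 10 genes of cornified epidermis summed to 10.1 to 25.9 CPM in Foxp1-deficient libraries and 5.71 to 36.1 CPM in controls, with Krt2 and Dsg1a at 0 in all 6. Lor, encoding loricrin, was highest in the libraries numbered 2, with 7.27 CPM in the Foxp1-deficient and 7.88 CPM in the control library. The 10 basal epithelium genes summed to 139 to 234 CPM in Foxp1-deficient libraries and 131 to 146 CPM in controls, mostly from Itga6 and Sfn, which many other cell types make. Of the 10 basal genes, 5 could be tested and all 5 were higher, where 53.6% of genes tested were. Their median was 0.33 on the log2 scale (0.22 to 0.88 over the alternatives), and 0 passed edgeR's test. Only 2 of these 5, Itga6 and Perp, were higher in all 3 pairs, against 16.5% of genes tested. Itgb4, Sfn and Lgals7 were each lower in 1 pair. Perp, whose groups did not overlap, had a log2 fold change of 0.93 (SE 0.60). The 14 simple and tubule epithelium genes summed to 98.1, 255 and 233 CPM in Foxp1-deficient libraries 1, 2 and 3, against 43.4, 227 and 180 CPM in controls 1, 2 and 3, with 5 higher and 5 lower of 10 tested. The broadly expressed gene Spint2 alone held 203.7 CPM of the sum in Foxp1-deficient library 2 and 145.6 CPM in control 2, where 7 and 5 of the 14 genes were at 0. In all 3 pairs 4 of the 10 tested were higher and 2 lower, against 16.5% and 16% of genes tested, and 0 passed edgeR's test. Cldn3 had 52.6, 39.9 and 46.5 CPM in Foxp1-deficient libraries, against 7.51, 32.0 and 18.9 CPM in controls. Its groups did not overlap, and its log2 fold change was 1.25 (SE 0.54). The 8 collecting duct genes summed to 4.02, 25.5 and 54.2 CPM in Foxp1-deficient libraries, against 8.84, 9.77 and 49.3 CPM in controls. In Foxp1-deficient library 2 this sum was Wnt9b alone, with the other 7 genes at 0, and in control 2 the sum came from Aqp2 and Hsd11b2, with 6 genes at 0. All 5 smooth muscle genes were lower in all 3 pairs, against 16% of genes tested, and 0 passed edgeR's test. Their median was -0.997 on the log2 scale, or -1.05 with the replicate block (-1.52 to -0.55 over the alternatives). Des is also counted among the other intermediate filament genes. DESeq2 with the block called Acta2 (adjusted p = 0.00332 by DESeq2) and Myh11 (adjusted p = 0.00471 by DESeq2) as lower, against 1.18% of genes tested. Of 6 stromal genes 4 were higher and 2 lower. Among them DESeq2 with the block called Dcn, encoding decorin, as higher (adjusted p = 0.0026 by DESeq2), against 1.18% of genes tested. edgeR and limma-voom with the block called 0 in both lists.

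**Figure D5:**
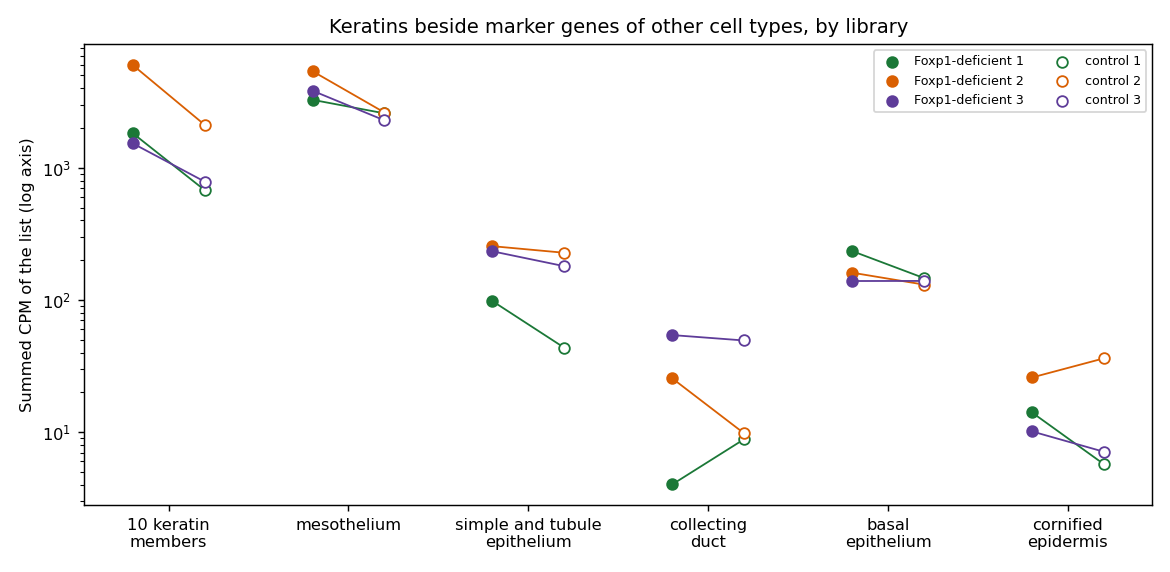
Summed CPM on a log axis of the 10 keratin members and of 5 marker lists in Foxp1-deficient libraries (filled) and controls (open), with a line joining equal numbers. The keratin and mesothelium sums are higher in the Foxp1-deficient library of each pair, and the collecting duct sum is below 60 CPM in every library.

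The genes whose levels most resembled each keratin were looked up by Pearson's r of log2 (CPM + 1) over the 6 libraries, among 8990 genes averaging at least 10 CPM. With so many genes and 6 libraries that share depth and replicate number, high values arise readily, and r is given as a measure of likeness only. For Krt8 these were Ptrf, encoding a caveola coat protein (r = 0.993), Frmd6 (r = 0.986) and Gprc5a, an orphan receptor gene (r = 0.984). For Krt14 they were Trim25 (r = 0.987), the connexin gene Gjb5 (r = 0.985) and the laminin gene Lamb2 (r = 0.971). Gjb5 had 14.0, 38.0 and 15.5 CPM in Foxp1-deficient libraries, against 2.39, 5.67 and 4.52 CPM in controls. For Krt7 they were S100a16, Sh3bp5l and Fah (r from 0.992 to 0.995), for Krt19 Crip2, Ehd1 and Prkcz (r from 0.983 to 0.992), for Krt18 Ofd1, Fkbp10 and Trip10 (r from 0.987 to 0.993), and for Krt17 Pcolce, Ccdc181 and Arhgef7 (r from 0.969 to 0.975). Among the keratins themselves, Krt18 was most like Krt19 (r = 0.92), Krt7 most like Krt18 (r = 0.90), and Krt14 most like Krt8 (r = 0.89). Krt8 and Krt18, the partner chains, had r = 0.76, and Krt14 and Krt18 had r = 0.55.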

How the data were processed

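RNA pulled down with anti-HA beads was counted in 6 libraries, 3 Foxp1-deficient and 3 control, grouped and numbered by the sample titles. The authors deposited raw counts per gene symbol, made with featureCounts 1.5.1 per the file headers, which show paired fragments, exons as features and an mm10 annotation (version 86). The command has no strand or multi-mapping option. Exons of Krt5 and Krt10 overlap small antisense genes (Gm44323 and Gm11940) that had at most 2 counts in any library, and the other 8 members overlap none. The exon length column, deposited by the authors, served for CPM per kilobase as a value unit of its own, in bases. The submitters' processing notes name STAR and Trimmomatic, without settings.

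The test was that of edgeR 4.0.16 in R 4.3.3, with TMM, filterByExpr with a minimum count of 10, quasi-likelihood F test, Benjamini-Hochberg adjustment over 14311 genes at 0.05, two-sided. Log2 ratios within pairs used CPM + 0.5. Alternatives were RLE, upper quartile or no scaling factors, other filters, DESeq2 1.42.0, limma-voom (limma 3.58.1), the replicate block, and libraries left out. The procedure was tested on simulated counts. Same-numbered libraries' deviations from group means correlated at r = 0.54, 0.49 and 0.59, so the numbers were taken to pair them, from the data and not from the labels. Members and gene lists were chosen with earlier results of these data known. The genes named are all members, other keratins reaching 1 CPM, up to 4 genes of lowest p per list, defining markers, and the 3 genes most like each of the 6 members averaging 10 CPM. Of the desmosome and plakin list, 15 of 16 genes were analysed here. Depth allows 0.137 to 0.382 CPM for a count of 0 (3 counts) in Foxp1-deficient libraries and 0.146 to 0.315 in controls. Promoter sequences are RefSeq's, and figures were drawn with matplotlib 3.10.9.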

Additional observations from a re-analysis of the deposited data

How the results depend on the processing

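The median log2 fold change of the keratin members that passed the filter stayed between 1.08 and 1.44 over the alternatives that kept all libraries or left out both numbered 2, and between 0.43 and 1.54 when any 1 library was left out, lowest without Foxp1-deficient library 2. With the replicate block in edgeR it was 1.32. The members higher in all pairs numbered 7 with RLE or library totals, 8 without both libraries numbered 2 (Krt17 joins), and 7 to 8 with any 1 pair left out. Turned directions were Krt10 (0.051 with limma-voom and quality weights, 0.28 without the libraries numbered 2), Krt18 (-0.062 without Foxp1-deficient library 2, up to 1.41 without control 2) and Krt17 (-0.064 without control 1, up to 1.33 without control 2), and the cause was not tested. Calls over all genes were 0 in 14 of 17 alternatives, against 6 with DESeq2, 169 with DESeq2 and a replicate block, and 8 when limma-voom had the block. Calls in the related lists were 0 except 14 with DESeq2 and a block, and leaving out any 1 library kept both counts at 0. Scaling moved the median of all genes by under 0.1 (log2). At these depths Krt5, Krt10 and Krt20 rest on few counts. So does Krt80 in the libraries numbered 2, with 26 counts in the Foxp1-deficient library and 0 in the control. A count of 0 does not show absence.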
